A study of Mus musculus with 8 samples.

Results

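The transcripts of the mouse mitochondrial genome were followed in embryonic stem cells with an induced deletion of Prmt5. The members were all genes whose locus lies on chromosome MT in the deposited tables, 37 of 38991 gene identifiers, made up of 13 protein genes, 2 rRNA genes and 22 tRNA genes. All 37 carry the same symbol and coordinates in GENCODE release M21 (GRCm38, the same assembly as mm10).

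The iPKO group, the Prmt5 knockout, and the iPHet group, the control, had 4 RNA-seq libraries each. Both groups were C57BL/6 male embryonic stem cells derived on mouse embryonic fibroblasts from blastocysts of embryonic day 3.5, and then moved to 2i ground state medium, which holds cells in an undifferentiated state. Cells of both groups received 2 µM 4-hydroxytamoxifen for 48 hours, the agent that induces the Prmt5 deletion, and then fresh medium. The labels name line PC4 as iPKO and line PC1 as iPHet for most experiments, so genotype and cell line cannot be told apart, and they do not spell out which Prmt5 alleles iPHet keeps. Whether libraries of 1 genotype are separate cultures is not stated either, and the p-values then cover only the spread among these libraries, which may be technical.

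Mitochondrial DNA is transcribed on both strands into long RNAs that span many genes. The tRNAs lie between most of the protein and rRNA genes, and their excision releases the mRNAs and rRNAs, after which most mRNAs receive a poly(A) tail. The protein genes encode core subunits of respiratory complexes I, III and IV and of ATP synthase, whose other subunits come from nuclear genes, and the rRNAs form the core of the mitochondrial ribosome. Because genes of a strand share long precursors, processing and stability are known to set much of the difference between their mRNA levels. PRMT5 methylates the Sm proteins of the spliceosome, and mitochondrial transcripts have no introns.

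The level of a gene is its FPKM, a fragment count corrected for the length of the transcript and the size of the library. Prmt5 was at 11.8, 14.5, 12.4 and 15.0 FPKM in iPKO libraries 1 to 4 and at 52.8, 70.8, 54.3 and 72.2 FPKM in iPHet libraries 1 to 4, lower in every iPKO library than in any iPHet library. The 8 markers of embryonic stem cells were all expressed, with sums of 2600 to 2789 FPKM in iPKO and 2176 to 3572 FPKM in iPHet. 1 of them, Sox2, fell in iPKO, at 68.0, 72.7, 68.6 and 70.9 FPKM in iPKO libraries 1 to 4 and at 97.6, 88.4, 94.997 and 86.3 FPKM in iPHet libraries 1 to 4 (log2 change -0.38, limma adjusted p = 0.00539), and its part in the mitochondrial differences was not tested. The 8 feeder fibroblast markers summed to 1.91 to 4.56 FPKM in iPKO and 2.01 to 3.45 FPKM in iPHet, and Postn and Lum were at 0 in all libraries. Within a genotype, libraries 1 and 3 were close to each other, and so were libraries 2 and 4. The SD of their log2 differences over 8126 nuclear protein-coding genes was 0.164 to 0.176 within these pairs and 0.375 to 0.415 between them. The labels give this split no name. Libraries 1 and 3 are called the odd libraries and libraries 2 and 4 the even ones, and values are given for each.

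Where mitochondrial genes overlap, a fragment can belong to either gene, and the counting method and its use of strand are not given. The sequences that follow show the 3 longest overlaps between protein genes, with the shared bases in capitals. They take up 43 of the 204 bases of mt-Atp8, 7 of the 297 of mt-Nd4l and 14 of the 519 of mt-Nd6. How far the levels of these genes depend on fragments there was not tested. In mt-Atp8 and mt-Atp6 the shared stretch is 43 bases, read in different frames. All sequences are from GENCODE release M21 on GRCm38.
mt-Atp8, 3′ end, MT:7897-7969, plus strand: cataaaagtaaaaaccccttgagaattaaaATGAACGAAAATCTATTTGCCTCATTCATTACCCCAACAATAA
mt-Atp6, 5′ end, MT:7927-7999, plus strand: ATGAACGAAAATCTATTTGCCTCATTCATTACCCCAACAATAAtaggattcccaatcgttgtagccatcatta
mt-Nd4l, 3′ end, MT:10137-10173, plus strand: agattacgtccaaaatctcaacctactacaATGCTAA
mt-Nd4, 5′ end, MT:10167-10203, plus strand: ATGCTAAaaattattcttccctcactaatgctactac
mt-Nd5, 3′ end, MT:13522-13565, plus strand: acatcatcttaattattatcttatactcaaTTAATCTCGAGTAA
mt-Nd6, 3′ end, MT:13552-13595, minus strand: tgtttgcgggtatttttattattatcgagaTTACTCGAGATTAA
The last pair ends tail to tail on opposite strands, and mt-Nd6 is the only protein gene on the minus strand.

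The mitochondrial protein genes, as annotated, also differ in how they end. In 10 of the 13 protein genes the annotated length is a multiple of 3 and the annotated stop codon is complete. In 3 of them, mt-Co3, mt-Nd4 and mt-Cytb, the gene ends in a lone T, and a UAA stop arises in such mRNAs when the poly(A) tail is added. The last 30 bases of these 3 genes are set beside those of mt-Nd1 and mt-Nd2, which were lower in iPKO cells, with the last codon or lone base in capitals.
mt-Nd1, MT:3678-3707, plus strand: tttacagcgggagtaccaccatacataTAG
mt-Nd2, MT:4922-4951, plus strand: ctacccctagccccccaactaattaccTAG
mt-Co3, MT:9361-9390, plus strand: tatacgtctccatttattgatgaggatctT
mt-Nd4, MT:11515-11544, plus strand: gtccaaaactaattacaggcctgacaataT
mt-Cytb, MT:15259-15288, plus strand: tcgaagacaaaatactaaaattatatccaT
Among the protein genes mt-Nd1 and mt-Nd2 are the pair ending in TAG, and the other complete annotated stops are TAA. mt-Nd1 ends inside mt-Ti, which starts at MT:3706, and mt-Nd2 ends inside mt-Tw, which starts at MT:4950. The AG of each TAG thus also belongs to the next tRNA gene. After excision of these tRNAs the stop in the mRNA may not be complete, and mRNA ends were not measured.

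Mitochondrial transcripts were among the most abundant RNAs of these cells. mt-Co2, a complex IV subunit, had the highest FPKM of all genes in each of the 8 libraries. Of the 10 genes with the highest mean FPKM, 5 were mitochondrial. The mitochondrial genome gave 8.36%, 5.87%, 8.003% and 5.61% of the summed FPKM in iPKO libraries 1 to 4, and 8.91%, 7.18%, 8.48% and 6.86% in iPHet libraries 1 to 4. The odd libraries were higher than the even ones in both genotypes, and the groups overlapped.

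The mean share was 6.96% ± 1.42 in iPKO and 7.86% ± 0.991 in iPHet (SD, n = 4 each), a difference of -0.896 percentage points, which did not pass an exact two-sided permutation test over the 70 relabellings (p = 0.314, where 0.0286 is the smallest possible). Within the odd libraries the mean share was 8.18% in iPKO and 8.69% in iPHet. Within the even libraries it was 5.74% in iPKO and 7.02% in iPHet. Each iPKO pair thus lay below the iPHet pair of the same numbers, but an exact permutation of 2 against 2 cannot go below p = 0.333. In these bulk samples, less mitochondrial RNA per cell and fewer cells with high levels of it cannot be told apart. A share of summed FPKM also falls when other transcripts rise.

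The 13 protein genes made up most of the share, at 6.62% ± 1.26 of summed FPKM in iPKO and 7.34% ± 0.799 in iPHet (SD, n = 4 each; exact permutation p = 0.314). The 2 rRNA genes gave 0.103% ± 0.0157 in iPKO and 0.101% ± 0.0198 in iPHet (SD, n = 4 each; exact permutation p = 0.743). The 22 tRNA genes gave 0.235% ± 0.154 in iPKO and 0.412% ± 0.173 in iPHet (SD, n = 4 each; exact permutation p = 0.171). None of the 3 classes differed by more than the spread between libraries under this test. As a share of fragments, taken as FPKM times gene length, the genome gave 2.28% ± 0.415 in iPKO and 2.70% ± 0.430 in iPHet (SD, n = 4 each; exact permutation p = 0.171).

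**Figure D1:**
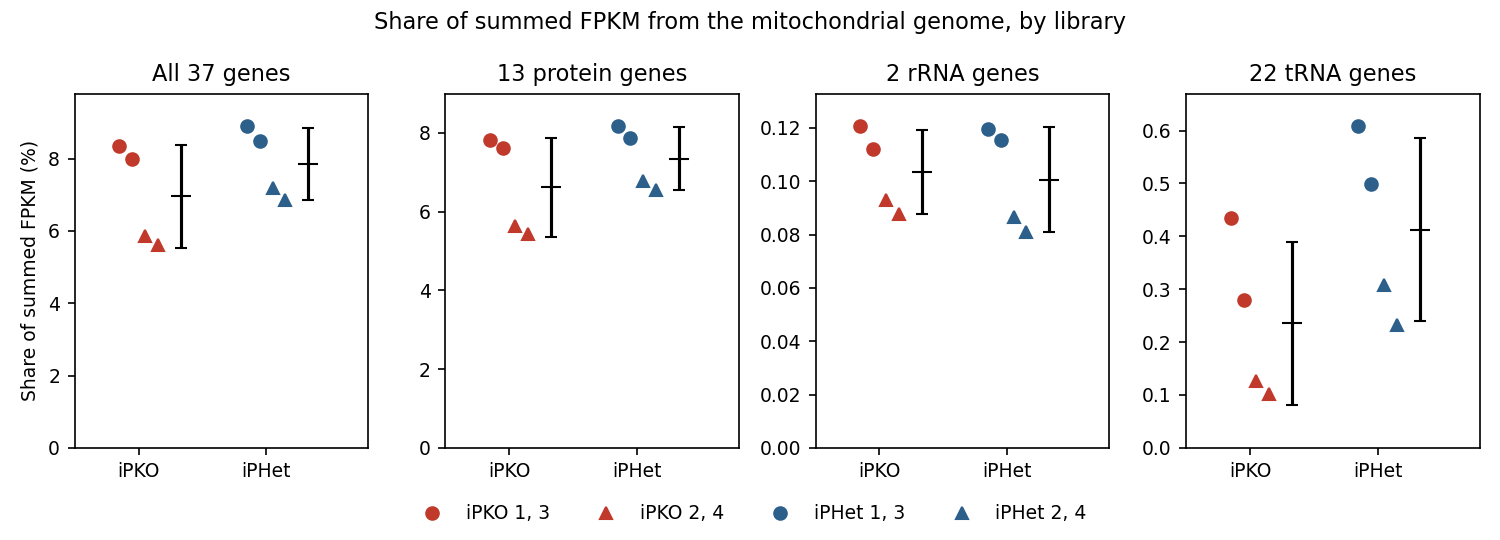
Share of summed FPKM (%) from all mitochondrial genes and from each class, in each iPKO and iPHet library; circles are libraries 1 and 3, triangles libraries 2 and 4, and the bar beside each group is the mean with its SD. The circles lie above the triangles in both genotypes, and for all 37 genes the iPKO libraries run from 5.61% to 8.36% and the iPHet libraries from 6.86% to 8.91%.

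Gene by gene, 3 protein genes fell in iPKO cells, mt-Nd1, mt-Nd2 and mt-Nd4l, and no member rose. They are 3 of the 7 mitochondrial genes for complex I, all of which encode subunits of its membrane arm. The tRNA gene mt-Te also passed the threshold, but it was listed at 0 in all iPKO libraries and entered the test only through its iPHet values, so its call is not read as a change. The test was limma on log2(FPKM + 1) over the 12462 genes that averaged 1 FPKM or more in iPKO or in iPHet, with a Benjamini-Hochberg adjusted p under 0.05. Of all genes tested, 15.8% were called, 9.53% as lower and 6.30% as higher. This balance depends on scaling: 785 genes were called higher and 1188 lower here, 936 and 946 after quantile normalization, and 1038 and 816 after median ratio scaling. The members called under each, mt-Te among them, were all lower. All 13 protein genes, both rRNA genes and 9 of the tRNA genes passed the filter, 24 members in all. Of the protein genes, 3 of 13 fell, and the median log2 change over the 13 was -0.31, beside -0.044 over all genes tested. With replicate numbers as a block, 7 members including mt-Te were called, all lower, beside 27.5% of all genes called and 16.6% called lower. The block takes its error from libraries that are close to repeats of each other, so its p-values are too small. With each close pair of libraries averaged to 1 value and odd or even number as a term, no protein or rRNA gene was called (mt-Te was), and 0.0481% of all genes were called.

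mt-Nd2 (MT:3914-4951) was at 458, 292, 446 and 296 FPKM in iPKO libraries 1 to 4, and at 730, 589, 717 and 584 FPKM in iPHet libraries 1 to 4. The groups did not overlap, and each iPKO library lay below the lowest iPHet library. Its mean was 1.76-fold lower in iPKO (log2 change -0.84, SE 0.18, limma adjusted p = 0.0177). In the odd libraries the iPKO level was 62.5% of the iPHet level, and in the even libraries 50.2%.

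mt-Nd1 (MT:2751-3707) was at 1443, 1052, 1405 and 1033 FPKM in iPKO libraries 1 to 4, and at 1973, 1639, 1894 and 1754 FPKM in iPHet libraries 1 to 4. Again the groups did not overlap. Its mean was 1.47-fold lower in iPKO (log2 change -0.57, SE 0.14, limma adjusted p = 0.0289). Without iPHet library 1, 3 or 4, or iPKO library 2 or 4, that p was 0.0638 to 0.0735, so the call was lost. The call was kept without iPHet library 2 or iPKO library 1 or 3. The iPKO level was 73.7% of the iPHet level in the odd libraries and 61.5% in the even ones.

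mt-Nd4l (MT:9877-10173) had the lowest level of the protein genes, at 19.3, 19.5, 17.1 and 25.7 FPKM in iPKO libraries 1 to 4, and at 33.7, 30.5, 32.0 and 34.7 FPKM in iPHet libraries 1 to 4. The groups did not overlap. Its mean was 1.60-fold lower in iPKO (log2 change -0.67, SE 0.12, limma adjusted p = 0.00857). The iPKO level was 55.4% of the iPHet level in the odd libraries and 69.5% in the even ones. In the even libraries alone mt-Nd4l was not called (limma adjusted p = 0.0529). mt-Nd4l and mt-Nd4 are found on 1 mRNA in mammals and overlap as printed, yet mt-Nd4 had 24.4 to 52.8 times the FPKM of mt-Nd4l. The deposited mt-Nd4l values exceeded the midpoint of their own confidence bounds by factors of 1.66 to 1.92, so this ratio is uncertain.

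The other 4 complex I genes did not pass the test. mt-Nd3 (MT:9459-9806) was at 2923, 1806, 2735 and 1712 FPKM in iPKO libraries 1 to 4, and at 4050, 2710, 3871 and 2495 FPKM in iPHet libraries 1 to 4 (log2 change -0.52, SE 0.24, limma adjusted p = 0.178). iPKO was lower within the odd and within the even libraries, at 71.4% of iPHet in the odd libraries and 67.6% in the even ones, while the groups overlapped because odd and even libraries differed by more. With replicate numbers as a block, mt-Nd3 was called (limma adjusted p = 0.00798). It was not called with each close pair averaged (limma adjusted p = 0.388).

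mt-Nd4 (MT:10167-11544) was at 947, 666, 902 and 627 FPKM in iPKO libraries 1 to 4, and at 1078, 995, 1005 and 941 FPKM in iPHet libraries 1 to 4 (log2 change -0.38, SE 0.15, limma adjusted p = 0.120). mt-Nd5 (MT:11742-13565), whose protein lies at the far end of the membrane arm, was at 797, 504, 748 and 489 FPKM in iPKO libraries 1 to 4, and at 797, 792, 734 and 738 FPKM in iPHet libraries 1 to 4 (log2 change -0.30, SE 0.17, limma adjusted p = 0.263). mt-Nd6 (MT:13552-14070) was at 435, 261, 351 and 219 FPKM in iPKO libraries 1 to 4, and at 443, 388, 370 and 326 FPKM in iPHet libraries 1 to 4 (log2 change -0.31, SE 0.21, limma adjusted p = 0.356). In these 3 genes, which lie next to each other on the genome, the even iPKO libraries stood low, at 66.8%, 64.9% and 67.2% of iPHet, and the odd libraries were at 88.8%, 101% and 96.8%. The end of mt-Nd6 overlaps that of mt-Nd5 on the other strand, so fragments there cannot be assigned to either gene without strand.

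**Figure D2:**
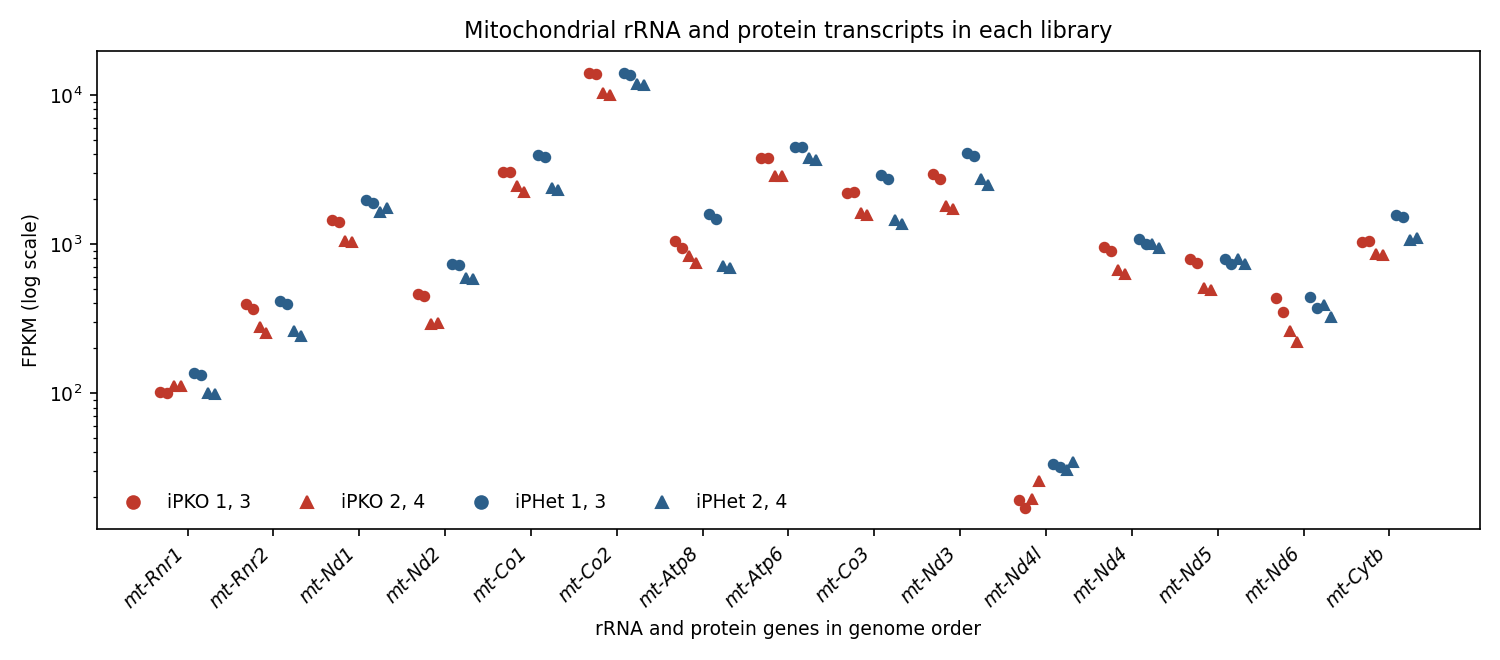
FPKM on a log axis of the 13 protein genes and 2 rRNA genes in genome order, in each iPKO library (red, left) and iPHet library (blue, right); circles are libraries 1 and 3 and triangles libraries 2 and 4. mt-Co2 stands highest in every library, mt-Nd4l lowest, and for mt-Nd1, mt-Nd2, mt-Nd4l and mt-Cytb all iPKO points lie below all iPHet points.

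mt-Cytb, the only mitochondrial gene of complex III (MT:14145-15288), was at 1023, 852, 1041 and 849 FPKM in iPKO libraries 1 to 4, and at 1552, 1064, 1525 and 1091 FPKM in iPHet libraries 1 to 4. The groups did not overlap, as for 5 of the 24 tested members. These include mt-Te, which was at 0 in all iPKO libraries and entered the test only through its iPHet values. Over all genes tested, 25.1% had groups that did not overlap, 15.0% with iPKO lower. The log2 change of mt-Cytb was -0.46 (SE 0.16, limma adjusted p = 0.0859), and with replicate numbers as a block it was called (limma adjusted p = 0.0144). With each close pair averaged, mt-Cytb was not called (limma adjusted p = 0.364). The iPKO level was 67.1% of iPHet in the odd libraries and 78.9% in the even ones.

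The 3 complex IV genes, which encode the catalytic core of cytochrome c oxidase, did not pass the test. mt-Co2 (MT:7013-7696), which carries the site that takes electrons from cytochrome c, was at 14103, 10276, 13822 and 9991 FPKM in iPKO libraries 1 to 4, and at 13925, 11828, 13475 and 11623 FPKM in iPHet libraries 1 to 4 (log2 change -0.09, SE 0.17, limma adjusted p = 0.752). mt-Co1 (MT:5328-6872), the haem-bearing subunit, was at 3028, 2434, 3035 and 2217 FPKM in iPKO libraries 1 to 4, and at 3972, 2390, 3807 and 2314 FPKM in iPHet libraries 1 to 4 (log2 change -0.19, SE 0.22, limma adjusted p = 0.602). mt-Co3 (MT:8607-9390) was at 2182, 1621, 2231 and 1571 FPKM in iPKO libraries 1 to 4, and at 2903, 1451, 2712 and 1357 FPKM in iPHet libraries 1 to 4 (log2 change -0.08, SE 0.28, limma adjusted p = 0.876). For mt-Co1 and mt-Co3 the iPHet odd libraries stood above all others, and the even libraries of both genotypes were close. After quantile normalization the fitted log2 changes of mt-Co1 and mt-Co3 were positive, at 0.12 and 0.070. That of mt-Co2 was 0 by construction, since the gene with the highest FPKM in every library is given the same value in each. No direction is given for these 3 genes.

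The ATP synthase genes did not pass the test, and mt-Atp6 and mt-Atp8 differed in how the odd and even libraries lay. mt-Atp6 (MT:7927-8607), a subunit of the proton channel, was at 3758, 2853, 3762 and 2864 FPKM in iPKO libraries 1 to 4, and at 4496, 3750, 4439 and 3653 FPKM in iPHet libraries 1 to 4. Its log2 change was -0.31 (SE 0.14, limma adjusted p = 0.181), and with replicate numbers as a block it was called (limma adjusted p = 0.0345). With each close pair averaged, mt-Atp6 was not called (limma adjusted p = 0.593). mt-Atp8 (MT:7766-7969), a short accessory subunit, was at 1041, 828, 937 and 747 FPKM in iPKO libraries 1 to 4, and at 1598, 709, 1477 and 692 FPKM in iPHet libraries 1 to 4 (log2 change -0.23, SE 0.30, limma adjusted p = 0.642). iPKO mt-Atp8 was at 64.3% of iPHet in the odd libraries and 112% in the even ones, whereas mt-Atp6, on the same mRNA in mammals, was at 84.2% and 77.2%. The deposited mt-Atp8 values were 2.42 to 3.28 times the midpoint of their own bounds, and the ratio of mt-Atp6 to mt-Atp8 ran from 2.81 to 5.29 over the libraries.

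The rRNAs did not pass the test. mt-Rnr1, the 12S rRNA (MT:70-1024), was at 102, 111, 99.4 and 111 FPKM in iPKO libraries 1 to 4, and at 137, 101, 132 and 98.8 FPKM in iPHet libraries 1 to 4 (log2 change -0.13, SE 0.12, limma adjusted p = 0.498). mt-Rnr2, the 16S rRNA (MT:1094-2675), was at 395, 275, 364 and 254 FPKM in iPKO libraries 1 to 4, and at 412, 260, 396 and 242 FPKM in iPHet libraries 1 to 4 (log2 change -0.01, SE 0.22, limma adjusted p = 0.986). Only the odd libraries of iPHet stood apart for mt-Rnr1, and mt-Rnr2 followed the odd and even split in both genotypes. Both rRNAs lay below most of the mRNAs downstream of them. How far the kit keeps RNAs with short or no tails is not stated, so their level against the mRNAs is not a level in the cell.

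The tRNA genes are 59 to 75 bases long, shorter than the reads of 100 bases, and their FPKM values are the least certain of the set. Of the 22, 13 were listed at 0 in all 8 libraries, 8 had a value in some libraries, and mt-Ts1 had one in all 8. The whole genes mt-Te and mt-Ts1 are printed because their values turn the tRNA results. mt-Te lies between mt-Nd6, on its own strand, and mt-Cytb, on the other. mt-Ts1 lies antisense at the end of mt-Co1, with which it shares the 3 bases in capitals.
mt-Te, MT:14071-14139, minus strand: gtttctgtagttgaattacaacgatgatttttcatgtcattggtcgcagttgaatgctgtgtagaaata
mt-Ts1, MT:6870-6938, minus strand: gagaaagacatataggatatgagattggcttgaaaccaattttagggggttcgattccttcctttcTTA
mt-Te, the tRNA for glutamate, was listed at 0 in all 4 iPKO libraries, and at 373, 179, 214 and 150 FPKM in iPHet libraries 1 to 4. These values carry the status OK, so none is marked as a failed estimate. A 0 for a gene shorter than the reads may still not mean absence, so no fold or p is given. The iPHet values were 47.0 to 76.2 times the midpoint of their own bounds, whose highest upper limit was 8.73 FPKM. On the midpoints, mt-Te was at 0 in iPKO and at 2.35 to 5.05 FPKM in iPHet.

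mt-Ts1, a tRNA for serine, was at 1665, 294, 1001 and 212 FPKM in iPKO libraries 1 to 4, and at 1932, 1105, 1707 and 828 FPKM in iPHet libraries 1 to 4 (log2 change -1.21, SE 0.65, limma adjusted p = 0.243). It gave most of the tRNA share. In the even libraries iPKO was at 26.2% of iPHet, and in the odd libraries at 73.3%. The 3 other tRNAs of highest mean level beside mt-Te were listed at 0 in at least 4 libraries each. mt-Tq, for glutamine, was at 147 and 129 FPKM in iPKO libraries 2 and 4 and at 219 FPKM in iPHet library 1. mt-Ta, for alanine, was at 123 and 156 FPKM in iPKO libraries 1 and 3, and at 64.5 FPKM in each of iPHet libraries 1 and 3. mt-Tl1, for leucine, was listed at 0 in all iPKO libraries and was at 62.3 and 181 FPKM in iPHet libraries 1 and 3. None of these 3 passed the test. The other 4 with any value (mt-Tw, mt-Tn, mt-Tg and mt-Tp) ran from 60.8 to 125 FPKM where they were above 0.

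The genotype difference was then set out for the odd and the even libraries apart. Of the 13 protein genes, 9 were lower in iPKO in both sets of libraries and none was higher in both, 69.2% lower in both, against 37.2% of all genes tested (4642 of 12462). The median log2 change over the 13 was -0.36 in the odd libraries and -0.52 in the even ones, beside -0.052 and -0.023 over all genes. The 9 were mt-Cytb, mt-Atp6, mt-Co1 and the complex I genes other than mt-Nd5, whose log2 change was 0.01 in the odd libraries. That of mt-Co1 was close to 0 in the even libraries (-0.02) and turned positive after quantile normalization of all libraries.

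A direct test of the difference between the odd and even libraries was the interaction of genotype with odd or even number in limma. Of the 16 members above 0 in all libraries, 12 had an adjusted p under 0.05, against 28.5% of all genes tested. Because libraries of a pair are close to repeats of each other, these p-values are too small. The change was more negative in the odd libraries for mt-Atp8, mt-Rnr1, mt-Co3, mt-Co1 and mt-Cytb, and more negative in the even libraries for mt-Ts1, mt-Nd5, mt-Nd4, mt-Nd2, mt-Nd1, mt-Co2 and mt-Atp6. For mt-Atp8 the log2 change was -0.64 in the odd libraries and 0.17 in the even ones (limma adjusted p = 0.00362 for the difference). For mt-Nd5 it was 0.01 in the odd libraries and -0.62 in the even ones (limma adjusted p = 0.00365 for the difference). mt-Rnr1 and mt-Co3 changed sign as well, at -0.42 and -0.35 in the odd libraries and 0.15 and 0.19 in the even ones.

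**Figure D3:**
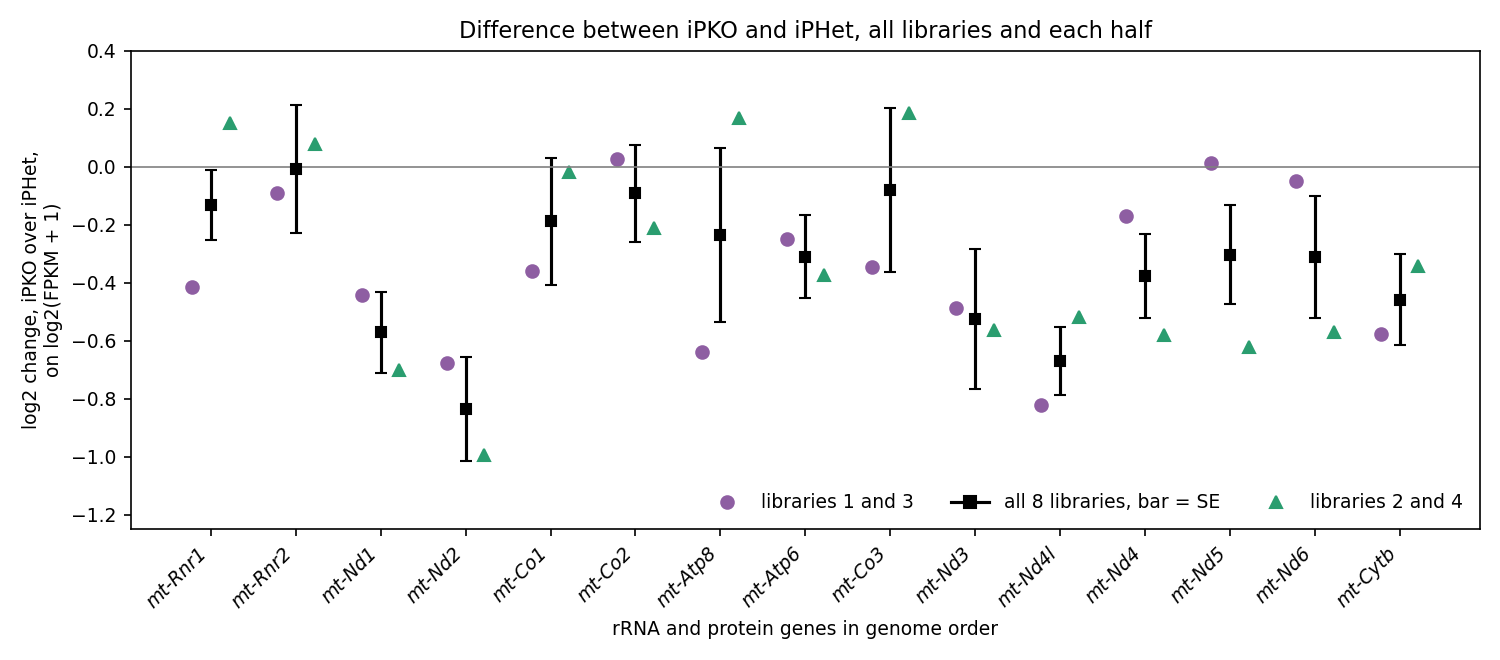
log2 change of iPKO over iPHet on log2(FPKM + 1) for each rRNA and protein gene in genome order; circles are libraries 1 and 3, triangles libraries 2 and 4, and squares all 8 libraries with the SE as a bar. mt-Nd1, mt-Nd2, mt-Nd3, mt-Nd4l, mt-Atp6 and mt-Cytb lie below 0 in both, while mt-Rnr1, mt-Atp8 and mt-Co3 lie below 0 in the odd libraries and above it in the even ones.

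Ratios within a library do not depend on how libraries are scaled. The summed FPKM of the 7 complex I genes over that of the 3 complex IV genes was 0.364, 0.321, 0.346 and 0.319 in iPKO libraries 1 to 4, and 0.438, 0.456, 0.431 and 0.449 in iPHet libraries 1 to 4. All iPKO libraries lay below all iPHet libraries, among the odd and among the even ones, and the iPHet values lay closer together than the gap between the groups. This ratio was formed after the gene values had been seen and is given as a description. mt-Nd3 and mt-Co2, neither of them called, had the highest levels in the complex I and complex IV sums. The deposited mt-Nd3 values were 1.39 to 1.63 times the midpoint of their own bounds. mt-Co2 alone made up 43.8% to 44.1% of the summed FPKM of the 13 protein genes in iPKO and 37.1% to 42.1% in iPHet.

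The mitochondrial genes were set beside the nuclear genes for subunits of the same complexes. The mitochondrial complex I genes in iPKO summed to 76.9% of iPHet in the odd libraries and 64.2% in the even ones, and the 36 nuclear complex I genes to 76.8% and 110%. For complex III, mt-Cytb was at 67.1% and 78.9%, and the 9 nuclear genes were at 74.7% and 105%. For complex IV the 3 mitochondrial genes were at 94.1% and 90.8%, and the 9 nuclear genes at 75.7% and 108%. For ATP synthase the 2 mitochondrial genes were at 79.1% and 82.8%, and the 15 nuclear genes at 79.2% and 96.8%. The nuclear sums thus lay below iPHet in the odd libraries and near or above it in the even ones. The mitochondrial sums lay below iPHet in both on the deposited scale. After quantile normalization the fitted changes of mt-Co1 and mt-Co3 were above 0. That of mt-Co2 is fixed at 0 there and gives no direction.

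Of these 69 nuclear genes tested, 7 fell and none rose, 10.1% lower, which is near the 9.53% over all genes, with a median log2 change of -0.18 (-0.43 in the odd libraries and 0.08 in the even ones). In complex I 5 of 36 fell, 13.9% lower beside the 9.53% over all genes. They include Ndufv3 (log2 change -0.61, limma adjusted p = 0.00195) and Ndufb7 (log2 change -0.51, limma adjusted p = 0.00969), with Ndufs7 and Ndufa9 next by p. Without iPHet library 2 or iPKO library 1 or 3, Ndufa9 was not called (limma adjusted p up to 0.0565), nor was it after quantile normalization (0.0543) or median ratio scaling (0.0636). Cyc1, the cytochrome c1 of complex III, fell (log2 change -0.28, limma adjusted p = 0.0440), and so did Atp5h, subunit d of ATP synthase (log2 change -0.44, limma adjusted p = 0.0379). Both calls were lost after quantile normalization and median ratio scaling. Cyc1 was called without 1 library only where that was iPKO 4 (limma adjusted p up to 0.104 for the others), and Atp5h only where it was iPKO 2 or 4 (up to 0.0940). None of the 9 tested complex IV genes was called, and the smallest p among them was that of Cox6b1 (log2 change -0.37, limma adjusted p = 0.0834).

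**Figure D4:**
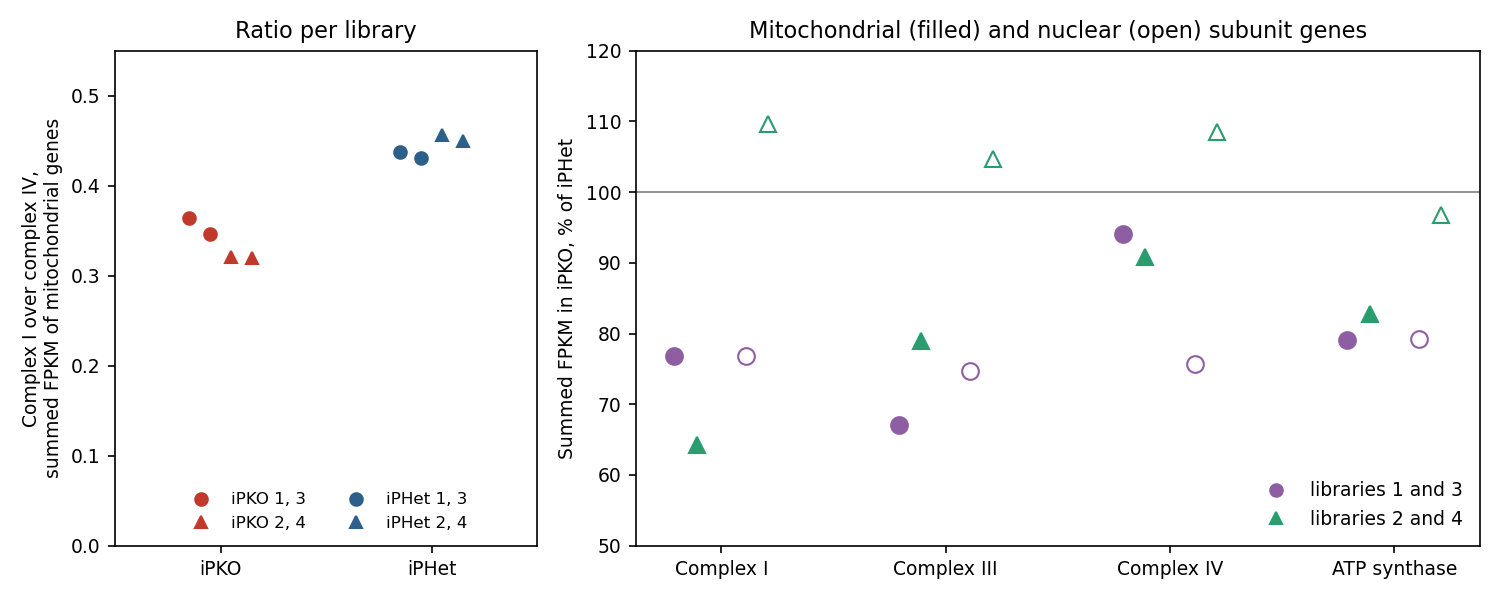
Left, the summed FPKM of mitochondrial complex I genes over that of complex IV genes in each library, 0.319 to 0.364 in iPKO and 0.431 to 0.456 in iPHet. Right, summed FPKM in iPKO as a percentage of iPHet for mitochondrial (filled) and nuclear (open) subunit genes of each complex. Circles are the odd libraries and triangles the even ones. The axis starts at 50%, and the filled points lie below 100% in both on the deposited scale. Quantile normalization puts mt-Co1 and mt-Co3 above no change and fixes mt-Co2 at no change by construction.

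Nuclear genes that copy, transcribe and process the mitochondrial genome were called in both directions. The 22 called nuclear genes of the respiratory chain and of these lists that are named were all uncalled with each pair of libraries averaged (limma adjusted p 0.205 to 0.421), and 12 of the 22 were also lost without some single library. Of 9 genes of mitochondrial transcription, 3 rose and none fell, 33.3% higher beside 6.30% over all genes. These were members of the mitochondrial termination factor family, Mterf (log2 change 0.37, limma adjusted p = 0.0410), Mterfd1 (log2 change 0.26, limma adjusted p = 0.0473) and Mterfd2 (log2 change 0.21, limma adjusted p = 0.0498). Mterfd1 and Mterfd2 are also known for roles in building the mitochondrial ribosome. Mterfd2 was not called when any 1 library was left out (limma adjusted p 0.0703 to 0.116), and Mterf and Mterfd1 were called only where that library was iPHet 1 (up to 0.103 and 0.111 for the others). A further member, listed as Gm9897, had a log2 change of 0.32 and missed the threshold (limma adjusted p = 0.0516). The median over the 9 was 0.21, beside -0.044 over all genes.

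Among 23 genes of transcript processing and turnover, 2 fell and 1 rose, 13.04% called beside 15.8% over all genes. Rexo2, an exonuclease that degrades very short RNAs in mitochondria, averaged 13.7 ± 1.12 FPKM in iPKO and 22.3 ± 1.75 FPKM in iPHet (SD, n = 4 each; log2 change -0.66, limma adjusted p = 0.00224). Ptcd2, known in mouse for the processing of the mt-Cytb transcript, fell as well (log2 change -0.35, limma adjusted p = 0.0139). Fastkd1, of a family that sets the stability of mitochondrial mRNAs, rose (log2 change 0.30, limma adjusted p = 0.0498), though without 1 library it was called only where that was iPKO 4 (up to 0.120 for the others). Ptcd3, a mitochondrial ribosomal protein, had a log2 change of -0.21 (limma adjusted p = 0.0839).

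Of 12 genes of mitochondrial DNA replication, 2 fell and 1 rose, 25.0% called beside 15.8% over all genes. The lists were not tested as sets. The helicase Peo1 fell (log2 change -0.31, limma adjusted p = 0.00947), as did Rnaseh1, which removes RNA from RNA-DNA hybrids (log2 change -0.23, limma adjusted p = 0.0429), a call lost when any 1 library was left out (limma adjusted p 0.0515 to 0.104) and under median ratio scaling (0.0934). The DNA polymerase Polg rose (log2 change 0.47, limma adjusted p = 0.0370), and was not called without iPHet library 2 or 4 or iPKO library 1 or 3 (up to 0.0927). Of 6 regulators of mitochondrial biogenesis tested, 1 fell, 16.7% lower beside 9.53% over all genes. It was Nrf1, a transcription factor of nuclear respiratory genes (log2 change -0.48, limma adjusted p = 0.0174). The number of mitochondrial DNA copies was not measured.

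For the rRNAs, 2 of 9 modification and maturation genes fell and none rose, 22.2% lower beside 9.53% over all genes. These were Mettl15, which methylates the 12S rRNA (log2 change -0.60, limma adjusted p = 0.00573), and Ybey, which acts on the end of the 12S rRNA (log2 change -0.37, limma adjusted p = 0.0277). Ybey was called without 1 library only where that was iPHet 3 (up to 0.0747 for the others), and after neither quantile normalization nor median ratio scaling (0.0769 and 0.0517). For the tRNAs, 2 of 11 modification genes fell and 2 rose (36.4% called, beside 15.8% over all genes). Trit1 fell (log2 change -0.39, limma adjusted p = 0.00408), and it adds the isopentenyl group on which Cdk5rap1 then acts. Cdk5rap1 itself rose (log2 change 0.49, limma adjusted p = 0.0133), as did Mto1, which modifies the wobble base of several mitochondrial tRNAs (log2 change 0.56, limma adjusted p = 0.0205), which was not called without iPHet library 1 or 3 or iPKO library 2 or 4 (up to 0.0555). Nsun3, which acts on the methionine tRNA, fell (log2 change -0.51, limma adjusted p = 0.0383), but was called without 1 library only where that was iPHet 2 or 3 (up to 0.0888 for the others), and after neither quantile normalization nor median ratio scaling (0.0759 and 0.0610).

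Nuclear copies of mitochondrial sequence can take reads from the genes themselves. The copy matched in the files, Gm10222, stood at 0.838, 0.920, 0 and 0 FPKM in iPKO libraries 1 to 4 and at 0.812, 2.00, 0.842 and 1.70 FPKM in iPHet libraries 1 to 4, and was not called (limma adjusted p = 0.129). Those levels were below those of every mitochondrial rRNA and protein gene. RNAs without a poly(A) tail, 12 genes led by Rn7sk, summed to 7.16, 18.8, 7.98 and 24.6 FPKM in iPKO libraries 1 to 4, and to 24.7, 11.02, 21.4 and 8.24 FPKM in iPHet libraries 1 to 4. They were higher in the even libraries of iPKO and in the odd libraries of iPHet, as mt-Rnr1 was. These sums follow Rn7sk. The histone gene Hist1h1a, the other gene of this list tested, rose in iPKO, at 1.22, 1.17, 1.003 and 1.45 FPKM in iPKO libraries 1 to 4 and at 0.248, 0.0679, 0.646 and 0.147 FPKM in iPHet libraries 1 to 4 (log2 change 0.81, limma adjusted p = 0.0147). For both, their part in the differences between odd and even libraries was not tested.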

How the data were processed

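Libraries were built from total RNA with Illumina's TruSeq RNA kit and read as pairs of 100 bases, per the labels' protocols. The submitters' processing notes name Trimmomatic for trimming and mm10 as the build. No aligner, quantifier or use of strand is given in the sources used here. The authors deposited 1 FPKM value for each gene in each library, with its bounds and a status column, per the file headers. With no counts in the files the depth is unknown, and the number of libraries limits the precision. Each file held 39013 rows, joined on the gene identifier, and the rows of 19 identifiers with more than 1 row were summed. Every member had the status OK, but 105 of the 146 member values above 0 lay outside their own deposited bounds, so the midpoint of the bounds was tried as an alternative chosen after this was seen.

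The members and all gene lists were chosen with earlier results of these data known. The 12462 genes that averaged 1 FPKM or more in iPKO or in iPHet were tested with limma 3.58.1 with an intensity trend (R 4.3.3) on log2(FPKM + 1), with no covariate, so changes of low genes are understated. Those with a Benjamini-Hochberg adjusted p under 0.05 over all tested genes were called, and "rose" and "fell" refer to called genes. On simulated data from these means, 83.7% of 2-fold changes and 97% of 4-fold changes were called. There were 9 false calls among the unchanged genes, with 12025 genes tested, changed ones included. The simulated libraries were drawn independently, whereas the real ones are close in pairs, so these rates do not carry over to the real data. Shares were tested by exact two-sided permutation (scipy 1.17.1). All protein and rRNA members are named, as are called tRNAs, the 5 tRNAs of highest mean, up to 4 genes of smallest p per nuclear list and Prmt5. Of 177 list entries, 170 matched; Cox4i1 and 6 nuclear copies were not analysed here.

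Deviations from the genotype means correlated between same-numbered libraries of iPKO and iPHet at 0.104, 0.162, 0.204 and 0.107 for numbers 1 to 4, all over the 0.1 taken as the limit for pairing; this pairing comes from the data, not from the labels. Other pairs of 2 odd or 2 even numbers had 0.0770 to 0.124, the highest being iPKO 4 with iPHet 2, and odd with even numbers -0.205 to -0.0579. iPKO 4 therefore correlated best with iPHet 2, not with its own number. Alternatives changed the pseudocount, the filter, the scaling, the replicate block, the odd or even term, the averaging of close pairs and the libraries included. No library was left out of the main test.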

Additional observations from a re-analysis of the deposited data

Results flagged for a closer look

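The genotype difference was not the same in libraries 1 and 3 as in libraries 2 and 4 for 12 members, by the interaction of genotype with odd or even number (limma, adjusted p under 0.05). The values here are the log2 change in the odd libraries minus that in the even ones. It was -0.80 for mt-Atp8, -0.57 for mt-Rnr1, -0.53 for mt-Co3, -0.34 for mt-Co1 and -0.23 for mt-Cytb, whose iPKO levels were relatively lower in the odd libraries. It was 1.44 for mt-Ts1, 0.64 for mt-Nd5, 0.41 for mt-Nd4, 0.32 for mt-Nd2, 0.26 for mt-Nd1, 0.24 for mt-Co2 and 0.12 for mt-Atp6, whose iPKO levels were relatively lower in the even libraries. There are 2 close libraries per genotype on each side, so the test takes its error from near-repeats. No library stood apart from the other 3 of its genotype by Dixon's critical value in any of 42 checks of members and shares.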

How the results depend on the processing

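Among the members, 407 of the 471 values under an alternative kept the direction and the side of the threshold. Of the 4 members past the threshold, mt-Nd1, mt-Nd2 and mt-Nd4l kept their direction throughout. The direction of mt-Te could not turn, since it was at 0 in all iPKO libraries. mt-Nd1 was not called without the filter on low values or after quantile normalization (adjusted p 0.122 and 0.0569), nor were mt-Nd1, mt-Nd2 and mt-Nd4l with pair averages and the odd or even term (adjusted p 0.327, 0.216 and 0.216). The count of called members was 9 with the odd or even number as a term, 7 with the replicate block, 1 with pair averages, 14 in the odd and 14 in the even libraries alone, 0 with pair averages over protein-coding genes only (adjusted p from 0.0633), and 3 to 4 without 1 library; over all genes it was 4729, 3427, 6, 5700, 4932 and 198, and 1264 to 1416 without 1 library, beside 1973. The odd libraries alone had 22 members tested of 12562 genes, with 13 called lower and 1 higher. The even ones had 20 of 12270, with 11 lower and 3 higher. The odd calls include mt-Te, mt-Tl1 and mt-Tg, at 0 in iPKO. The even calls include mt-Te, at 0 in iPKO, and mt-Tq, at 0 in iPHet there. These entered the test only through the other genotype and are not read as changes. Leaving out iPHet 4 (1264) or iPKO 1 (1309) moved the count over all genes by over 1.5 times. Pair averages gave 1982 genes with an unadjusted p under 0.05.

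The nuclear lists held 23 called genes, 14 without the filter, 41 with the odd or even term, 88 and 62 in the odd and even libraries alone, 0 with either pair averaging, and 11 to 16 without 1 library, a change of over 1.5 times for every library but iPKO 4. Interaction calls fell to 7 without the filter. The share differences kept their sign for the genome, the protein genes and the tRNA genes, with no p under 0.05. With the replicate block their exact sign-flip p was 0.125, the smallest that 4 pairs allow, and iPKO was lower in 4 of 4 numbered pairs for each. The difference in share of summed FPKM from mitochondrial rRNA genes, 0.00277 percentage points, was -0.00196 as a share of fragments, -0.00104 in the odd libraries, and -0.00381 to 0.00915 without 1 library.

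Signs that turned were those of uncalled members. After quantile normalization the log2 change was 0.10 for mt-Rnr2, 0.12 for mt-Co1 and 0.070 for mt-Co3, and after median ratio scaling 0.053 for mt-Rnr2. In the odd libraries it was -3.89 for mt-Tq, 0.028 for mt-Co2 and 0.014 for mt-Nd5. In the even libraries it was 0.15 for mt-Rnr1, 0.077 for mt-Rnr2, 0.17 for mt-Atp8 and 0.19 for mt-Co3. On the midpoint of the bounds mt-Rnr2 had 0.0014. Without 1 library, mt-Rnr2 ran from -0.14 to 0.12, mt-Co3 from -0.26 to 0.10 and mt-Ta from -0.70 to 1.73. The cause of these turns was not tested. Scaling moved the median of all genes by less than 0.1 (log2).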

Other observations

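The order of the mitochondrial mRNAs by FPKM was stable across libraries. mt-Co2 ranked 1 and mt-Atp6 ranked 2 of the 13 protein genes in all 8 libraries, and mt-Nd2, mt-Nd6 and mt-Nd4l ranked 11, 12 and 13. mt-Nd3 and mt-Co1 shared ranks 3 and 4, and mt-Co3 and mt-Nd1 shared ranks 5 and 6. mt-Atp8 moved most, between ranks 7 and 10.

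Within each close pair of libraries, the protein and rRNA members differed by ratios of 0.808 to 1.32. The highest was that of mt-Nd4l in iPKO for library 4 over library 2, beside 1.14 in iPHet. mt-Nd6 was the member with the lowest ratios, 0.808 in iPKO and 0.835 in iPHet for library 3 over library 1, and 0.839 in iPKO and 0.839 in iPHet for library 4 over library 2. mt-Nd6 has the highest share of G on its coding strand of the protein genes, 28.1%, against 5.88% to 16.1% for the other 12. Whether base composition has a part in these ratios was not tested. The ratio of odd to even levels also differed between genes, from 0.804 for mt-Nd4l to 1.64 for mt-Nd6 in iPKO and from 1.00 for mt-Nd5 to 2.20 for mt-Atp8 in iPHet.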
